A study of Homo sapiens with 6 samples.

Results

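The regions described are 2148 H3K4me2 peaks of K562 cells that were called under a control hairpin and had no counterpart in the list called under a hairpin against Staufen 2. They were selected on measured values of those 2 lists. A member is a shControl H3K4me2 peak on chromosomes 1, 2, 3 and 10 to 22, or on chromosome 4 up to position 185623562 (build hg38), with a fold enrichment of 4.5 or more. Its other condition is that no shStau2 H3K4me2 peak of any fold enrichment overlaps it by 1 base or more. Members made up 2148 of the 44633 shControl peaks in that region and fold range, or 4.81% (exact Clopper-Pearson 95% interval 4.62 to 5.02%). Since the rule used both lists, this share is a description of how the members were chosen and carries no test. The deposited peaks of all 4 lists numbered 180871.

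K562 is a human cell line, established from the blast phase of chronic myeloid leukaemia (labelled bcCML), and carries the BCR-ABL1 fusion. The shStau2 cells expressed a short hairpin RNA against Staufen 2, a double-stranded RNA-binding protein, and the shControl cells a control hairpin. Each hairpin had 1 H3K4me2 library, 1 H3K4me3 library and 1 input library. There were no replicates, so no difference between hairpins has a test or a spread, and every interval covers counting error only.

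Dimethylation of lysine 4 of histone H3 is carried by nucleosomes at active and poised gene starts and at enhancers. Trimethylation of the same residue is concentrated at active starts, most of them rich in CpG dinucleotides. LSD1, with its partner CoREST, removes the mono- and dimethyl forms. Fold enrichment is the ratio of the ChIP pileup at a peak's summit to the local background, and pileup is the number of extended fragments stacked there. A region missing from a list failed the caller's threshold, which is different from having no mark. A lower level per cell and a smaller share of cells with the mark cannot be told apart in such libraries.

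The sequences of 6 gene starts show both kinds of start at which members lay. Each is the stretch of 250 bases before the start listed by RefSeq (GRCh38.p14, the same assembly as hg38), written on the gene's strand, with the bases inside the shControl-only peak in capitals. The APC2 stretch is chr19:1449871-1450120 (plus strand), SIGLEC14 is chr19:51646826-51647075 (minus), FASLG is chr1:172658853-172659102 (plus) and IL32 is chr16:3065153-3065402 (plus). Neither H3K4me3 list had a peak within 2 kb of these 4 starts. DNM1L, at chr12:32679051-32679300 (plus strand), and TCF3, at chr19:1652616-1652865 (minus), are shown beside them because both H3K4me3 lists marked them strongly.
APC2: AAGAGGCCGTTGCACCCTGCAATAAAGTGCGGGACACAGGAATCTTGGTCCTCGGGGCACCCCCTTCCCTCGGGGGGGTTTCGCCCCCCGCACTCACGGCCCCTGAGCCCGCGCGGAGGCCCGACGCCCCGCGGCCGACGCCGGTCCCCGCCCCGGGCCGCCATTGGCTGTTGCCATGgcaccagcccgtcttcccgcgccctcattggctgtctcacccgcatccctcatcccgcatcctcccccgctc
SIGLEC14: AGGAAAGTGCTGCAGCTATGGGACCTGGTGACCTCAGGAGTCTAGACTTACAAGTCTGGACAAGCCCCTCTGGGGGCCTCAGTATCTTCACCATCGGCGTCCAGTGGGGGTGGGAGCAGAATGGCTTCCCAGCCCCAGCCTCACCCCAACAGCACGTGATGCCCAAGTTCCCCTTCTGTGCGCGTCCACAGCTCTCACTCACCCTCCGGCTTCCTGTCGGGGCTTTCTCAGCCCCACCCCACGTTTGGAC
FASLG: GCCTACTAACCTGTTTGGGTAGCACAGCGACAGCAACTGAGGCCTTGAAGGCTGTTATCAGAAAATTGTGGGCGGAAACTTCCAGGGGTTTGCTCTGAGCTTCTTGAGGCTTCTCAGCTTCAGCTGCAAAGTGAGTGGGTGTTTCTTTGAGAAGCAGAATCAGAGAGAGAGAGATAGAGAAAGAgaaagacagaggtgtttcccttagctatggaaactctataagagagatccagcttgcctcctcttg
IL32: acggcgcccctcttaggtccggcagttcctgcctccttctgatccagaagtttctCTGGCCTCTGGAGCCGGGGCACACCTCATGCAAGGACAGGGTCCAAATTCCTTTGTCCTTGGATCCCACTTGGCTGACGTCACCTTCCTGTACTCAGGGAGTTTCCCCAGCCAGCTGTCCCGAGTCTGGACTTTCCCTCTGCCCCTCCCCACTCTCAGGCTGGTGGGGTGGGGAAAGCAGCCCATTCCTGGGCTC
DNM1L: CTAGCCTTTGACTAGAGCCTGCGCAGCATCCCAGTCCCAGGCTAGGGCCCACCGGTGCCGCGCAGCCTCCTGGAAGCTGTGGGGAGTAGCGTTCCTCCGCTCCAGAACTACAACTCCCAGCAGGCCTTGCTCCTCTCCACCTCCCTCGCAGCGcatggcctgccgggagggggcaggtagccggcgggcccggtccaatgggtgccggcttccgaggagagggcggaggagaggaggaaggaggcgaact
TCF3: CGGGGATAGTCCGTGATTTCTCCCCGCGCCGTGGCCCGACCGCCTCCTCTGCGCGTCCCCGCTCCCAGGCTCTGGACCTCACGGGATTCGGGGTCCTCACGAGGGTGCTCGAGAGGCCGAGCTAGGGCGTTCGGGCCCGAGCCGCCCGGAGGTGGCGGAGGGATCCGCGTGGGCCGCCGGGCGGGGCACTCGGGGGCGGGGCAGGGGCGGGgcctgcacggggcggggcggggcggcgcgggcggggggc

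Across these stretches the number of CpG dinucleotides was 26 at APC2, 8 at SIGLEC14, 2 at FASLG, 6 at IL32, 16 at DNM1L and 36 at TCF3. APC2 was thus CpG-rich without H3K4me3, while the starts of the 3 immune genes were CpG-poor. The member covered all 250 bases at SIGLEC14 and 178 of them at APC2. At APC2, FASLG, DNM1L and TCF3 the peak ended before the start and left its nearest bases uncovered.

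Most members were weak, narrow peaks. Their median fold enrichment was 4.92, against 8.68 in the 42485 shared shControl peaks of the same fold range. Their median width was 294 bases, against 890 bases in the shared peaks, and their median pileup 12.21, against 25.13. The range of members ran from 4.52-fold to 14.5-fold and from 200 to 1068 bases. Together they covered 720.9 kb of the 51610 kb under peaks of 4.5-fold or more, which is 1.40%. Peaks just above the threshold lay 14670 bases from PCBD1, 7348 bases from IFNL3 and 11585 bases from EGLN2, each at 4.52-fold. Unmatched peaks just below it lay in PRDM2, ANXA11 and FAM168A, each at 4.49-fold.

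How often a shControl peak lacked a shStau2 counterpart depended on both its fold and its width. Of the 1335 narrowest and weakest peaks (4.5 to 5-fold, under 250 bases), 35.7% were members (33.1 to 38.3%). Among peaks of the same fold but 1000 bases or wider, 0 of 196 were members, an interval of up to 1.86%. From 6-fold upward 220 of 31524 peaks were members (0.698%), from 7-fold upward 44 of 26824 (0.164%), and from 8-fold upward 6 of 22989 (0.0261%). Of 18809 peaks of 1000 bases or wider, 3 were members. Members were thus concentrated among the weakest and narrowest peaks of the range.

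**Figure D1:**
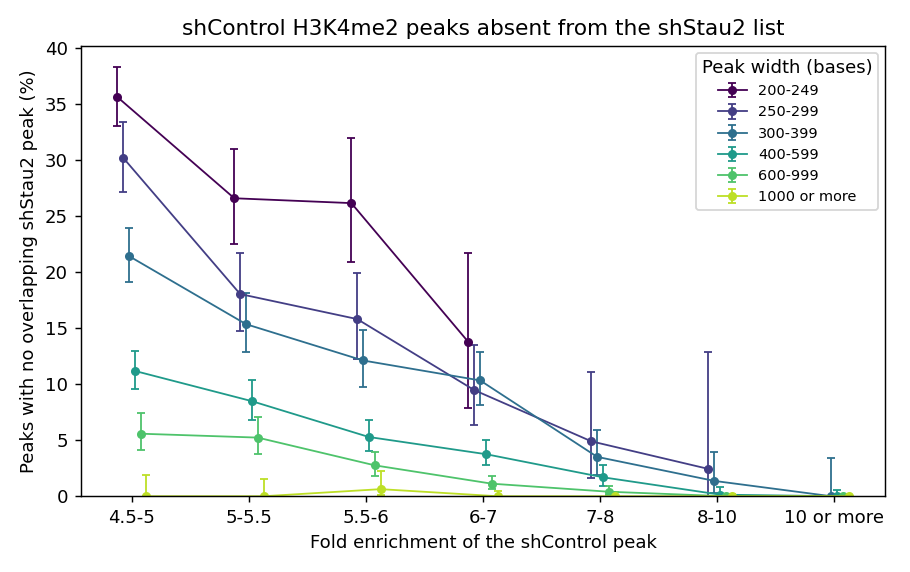
Percentage of shControl H3K4me2 peaks with no overlapping shStau2 peak (y axis) by fold enrichment of the shControl peak (x axis) and by peak width (lines); bars are exact 95% intervals, which cover counting error only. The narrowest and weakest class stands at 35.7% and every class of 1000 bases or wider stands below 1%.

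The 2 lists did not have the same overall enrichment. Peaks that matched 1 to 1 between the lists (40029 pairs) had a median fold enrichment of 8.46 in the shStau2 list and 7.03 in the shControl list, a ratio of 1.20. In the reverse direction, 5788 of 48227 shStau2 peaks of 4.5-fold or more overlapped no shControl peak (12%). With the threshold in the shStau2 list raised by that ratio to 5.41-fold, 2202 of 39264 did (5.61%). That ratio did not hold for weak peaks: the 7014 pairs in the members' range of fold and width had medians of 5.41-fold in the shStau2 list and 5.22-fold in the shControl list. The H3K4me2 libraries held 27979370 tags for shStau2 and 26221869 for shControl after duplicate removal. The part of depth and enrichment in which peaks became members was not tested.

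Because members are small, they were set beside the 9187 shared peaks within the 5th to 95th percentile of the members' own fold (4.56 to 6.41) and width (201 to 627 bases), called shared peaks of like size below. In that range 1753 of 10940 peaks were members (16%). Members still tended to be smaller than these: the shared peaks of like size had a median of 5.22-fold and 377 bases. Comparisons with them therefore reduce the difference in size without removing it. Unless a narrower class is named, the member shares below use all 2148 members, not only the 1753 in that range.

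The strongest member lay at the start of APC2, which encodes a relative of the Wnt pathway regulator APC. This peak (chr19:1448981-1450048) had a pileup of 33.75 and a fold enrichment of 14.5, and at 1068 bases it was also the widest member. It was the single member among 14168 shControl peaks of at least 10-fold and 1000 bases. It ended 73 bases before the listed start, inside the annotated gene (chr19:1446230-1473244), which also begins upstream of that start. Within 2 kb of the start, H3K4me2 peaks covered 0 bases in the shStau2 list and 1068 bases in the shControl list. The shStau2 list was not empty nearby: a peak of 26.8-fold and 2432 bases lay 1828 bases away. No H3K4me3 base was called that close to the start in either list, and the nearest H3K4me3 peaks lay 2291 bases (shStau2) and 2114 bases (shControl) from the member.

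After APC2 the members' fold enrichment dropped to 8.81, at a peak of 326 bases lying 16329 bases from ZNF827, a zinc finger gene. A peak inside TTLL10, a member of the tubulin tyrosine ligase-like family, had 8.33-fold. Peaks inside EMILIN1, an elastic fibre glycoprotein, and SPTBN1, the non-erythroid beta spectrin, had 8.21-fold each. These 2 differed from the ZNF827 peak in their surroundings: the nearest shStau2 peak lay 230 bases from the EMILIN1 member and 312 bases from the SPTBN1 member, against 17244 bases at ZNF827.

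Other strong members lay 12534 bases from PDSS1 (7.99-fold), 26190 bases from NT5DC4 (7.93) and 71019 bases from NIPA1 (7.91). One lay at the distal end of CDC25A, the phosphatase that activates cyclin-dependent kinases in S phase (7.85-fold, 656 bases). Its nearest shStau2 peak was 16902 bases away and reached 3.24-fold. The remaining ones lay 1986 bases from VMP1 (7.84-fold), 28112 bases from SMAD6 and 7516 bases from LMAN2L (7.70 each), inside OVCH1 and 1090 bases from SULT2A1 (7.61 each). Further strong peaks near gene ends were those 430 bases from UBXN4 (7.01-fold), at F11R, the junctional adhesion molecule A (6.41), at MS4A15 (204 bases wide), at TENT5B (6.29) and at FAM234A (6.14). Of the 15 strongest members APC2 alone lay within 1 kb of a listed start. The 5 widest were APC2, NOS2, the inducible nitric oxide synthase (1065 bases, 5.84-fold), a peak 8824 bases from RFC4 (1033 bases), and peaks inside PI4K2A (979 bases) and TIAM1 (969 bases).

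By place, members were mostly distal. Of 2148 members, 43.7% lay in the interior of a protein-coding gene, 35.6% outside genes, 14.1% in a lncRNA gene, 3.49% within 1 kb of another end of a protein-coding gene and 3.12% (67 peaks) within 1 kb of a listed start. In the shared peaks of like size these shares were 42.5%, 35.9%, 12.3%, 3.68% and 5.62%. Of all shared peaks, 29.1% lay at a start. The interval for starts was 2.43 to 3.94% in members and 5.15 to 6.11% in shared peaks of like size, so these did not overlap. In the narrowest and weakest peaks alone (under 5-fold and under 300 bases) the share at starts was 3.11% in members (1.98 to 4.63%) and 4.71% in shared peaks (3.68 to 5.92%), and these intervals did overlap. Over the full range, the intervals for gene interiors, lncRNA genes and places outside genes did overlap between these sets. Median distance to a listed start was 30185 bases in members, 33877 in shared peaks of like size and 15115 in all shared peaks.

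**Figure D2:**
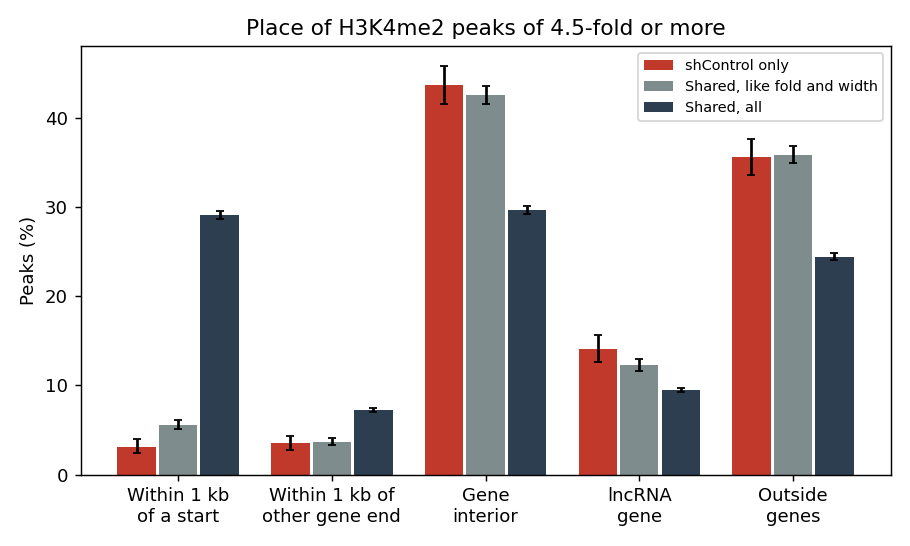
Percentage of H3K4me2 peaks (y axis) by place (x axis) in shControl-only peaks, shared peaks of like fold and width, and all shared peaks; bars on columns are exact 95% intervals for counting error. Starts held 3.12% of the shControl-only peaks, 5.62% of shared peaks of like size and 29.1% of all shared peaks.

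H3K4me3 was rare at members in both hairpins. The rule did not use the H3K4me3 lists, but each was called against the same input as the H3K4me2 list of its hairpin. The shStau2 H3K4me3 values are therefore not independent of the members' absence from the shStau2 H3K4me2 list. The part of this in the values below was not tested. The shStau2 H3K4me3 list overlapped 36 members (1.68%, interval 1.18 to 2.31%), against 11.2% of shared peaks of like size (10.6 to 11.9%) and 49.5% of all shared peaks. The shControl H3K4me3 list overlapped 23 members (1.07%, 0.680 to 1.60%), against 3.86% (3.48 to 4.28%) and 40.2%. Members therefore had less H3K4me3 overlap than shared peaks of like size in either list, with intervals that did not meet. In the narrowest class alone (under 5-fold and under 300 bases) the shStau2 H3K4me3 list overlapped 11 of 739 members (1.49%) and 89 of 1466 shared peaks (6.07%). There the shControl H3K4me3 list overlapped 0.947% of members (0.382 to 1.94%) and 2.05% of shared peaks (1.38 to 2.91%), and these intervals did overlap.

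**Figure D3:**
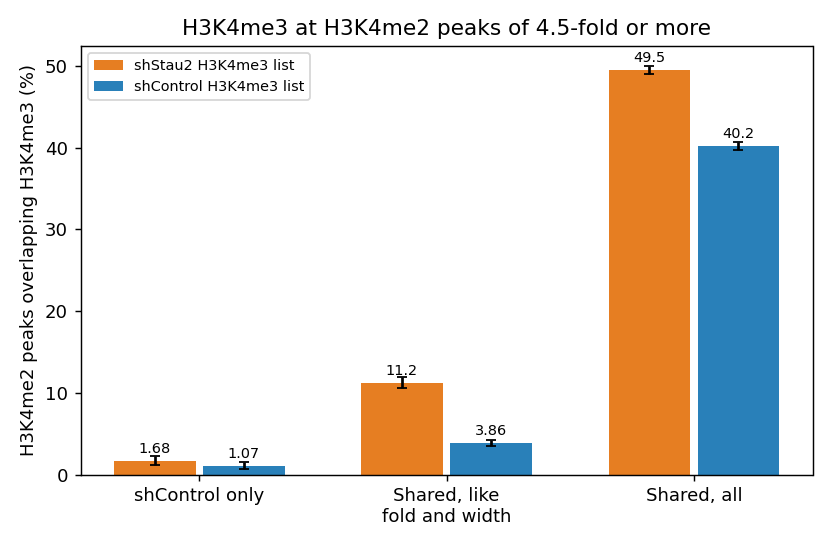
Percentage of H3K4me2 peaks that overlap an H3K4me3 peak (y axis) in shControl-only peaks, shared peaks of like fold and width and all shared peaks (x axis), for the shStau2 and the shControl H3K4me3 lists; bars are exact 95% intervals for counting error. The shControl-only peaks stand at 1.68% and 1.07%, below both shared sets.

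As a whole, the shStau2 H3K4me3 list was larger, with 27577 peaks against 22280 in the shControl list. Of the 38 members with H3K4me3 in any list, 21 had it in both, 15 in the shStau2 list alone and 2 in the shControl list alone. The 2 were the TTLL10 member (H3K4me3 at 4.73-fold) and one 19880 bases from YTHDF1 (6.41-fold for H3K4me2, 5.28-fold for H3K4me3), which encodes a reader of methylated adenosine in mRNA. The 15 with H3K4me3 under shStau2 alone were 0.698% of members, against 7.42% of shared peaks of like size. None of these 15 lay within 1 kb of a listed start. In NAALADL2 a member of 6.71-fold met a shStau2 H3K4me3 peak of 3.17-fold, and 383149 bases from ZEB2, a repressor of epithelial genes, a member of 6.08-fold met one of 5.17-fold. An exception in strength was a member 6685 bases from ZNF763, where the shStau2 H3K4me3 peak reached 19.8-fold and a shControl H3K4me3 peak lay 123 bases away.

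The strongest members with H3K4me3 in both lists were a peak near NIPA1 (H3K4me3 at 10.7-fold under shStau2 and 6.81-fold under shControl), those at the starts of DNM1L and TCF3, and one inside DCAF1, a substrate receptor of a ubiquitin ligase (37.7-fold under shStau2 and 11.97-fold under shControl). DNM1L encodes the GTPase that divides mitochondria, and its H3K4me3 peak had 65.0-fold under shStau2 and 31.4-fold under shControl. TCF3 encodes the E2A transcription factors of lymphoid development, and its H3K4me3 peak had 69.0-fold under shStau2 and 41.8-fold under shControl. Both starts kept a strong shStau2 H3K4me2 peak close to the member: 15.3-fold and 178 bases away at DNM1L, and 40.6-fold and 179 bases away at TCF3. The H3K4me3 folds of the lists as a whole were not compared, so these pairs of H3K4me3 folds are not read as a trait of members.

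Members ranged from those beside a shStau2 peak to those far from one. The median distance to the nearest shStau2 H3K4me2 peak was 2791 bases. Within 500 bases lay 571 members (26.6%), from there to 5000 bases 772 (35.9%), and beyond 5000 bases 805 (37.5%). Another shControl peak lay within 500 bases of 71.8% of the adjacent members, against 10.2% and 4.72% of the 2 more distant classes. This contrast is partly built into the classes: for 421 of the 571 adjacent members the nearest shStau2 peak itself overlapped a shControl peak. Of the 23 members with shControl H3K4me3, 18 were adjacent ones. The median fold enrichment was 4.92 in each class. Weak peaks often shared the same fold values, so equal medians do not show that the classes had equal folds.

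**Figure D4:**
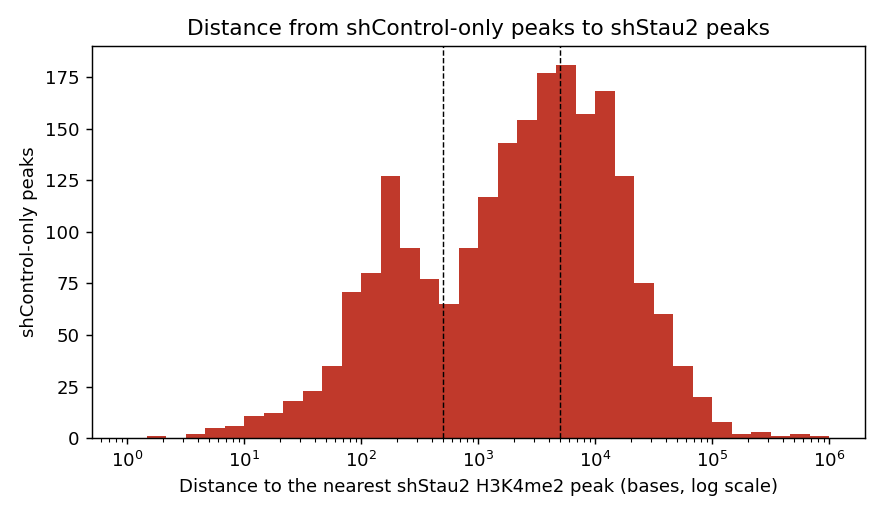
Number of shControl-only H3K4me2 peaks (y axis) by distance to the nearest shStau2 H3K4me2 peak in bases (x axis, log scale); dashed lines stand at 500 and 5000 bases. There are 571 peaks up to the first line, 772 between the lines and 805 beyond the second.

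Beyond 10 kb lay 502 members, beyond 50 kb 62 and beyond 100 kb 17. The farthest was a peak of 4.62-fold and 224 bases lying 16985 bases from ESRRG, an orphan nuclear receptor, with the nearest shStau2 H3K4me2 peak 838106 bases away. That same place held a shStau2 H3K4me3 peak of 6.52-fold, while the nearest shControl H3K4me3 peak was 915809 bases away. The next by distance lay 737342 bases from C4orf33, 655615 bases from SETBP1, 22116 bases from MYH13 and inside CTNNA3. These 4 had 200 or 207 bases and 4.62 to 4.92-fold.

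By gene start, 71 of 11893 protein-coding genes with a listed start had a member within 1 kb of it, or 0.597%. Because members were chosen for absence, fewer bases under shStau2 are built into these genes, and the values are given as a description. H3K4me2 peaks within 2 kb of the start covered fewer bases under shStau2 than under shControl at 67 of them, and more at BMP10, PXN, ZNF667 and ZNF561. The median was 397 bases under shStau2 and 747 under shControl. Over all starts the direction was the opposite: of 8965 marked in either list, 2427 (27.1%) had fewer bases under shStau2 and 6433 had more. H3K4me3 within 2 kb split the 71 genes: 41 had none in either list, 28 had it in both, and ATF3, a stress-induced transcription factor, and CA14, a carbonic anhydrase, had it under shStau2 alone.

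At 30 of the 71 starts the shStau2 list held no H3K4me2 base within 2 kb, and none of these 30 had H3K4me3 in either list. Several belong to blood cell genes, named here once their values were known. SIGLEC14 and SIGLEC10, receptors for sialic acid on leukocytes, had 0 bases each under shStau2, against 703 bases at SIGLEC14 and 1163 at SIGLEC10 under shControl. SIGLEC14 has a near-identical neighbour, SIGLEC5, so its reads, like those of GOLGA6C, may be shared between copies. FASLG, the death ligand of cytotoxic lymphocytes, had 0 bases under shStau2 and 335 under shControl. IL32, a cytokine of T and natural killer cells, had 0 bases under shStau2 and 289 under shControl. MATK, a kinase that inhibits Src family kinases in blood cells, had 0 bases under shStau2 and 352 under shControl. CD34, the surface marker of blood stem cells and progenitors, had 0 under shStau2 and 298 under shControl. These zeros cover the 2 kb around a start, not the whole gene. Inside CD34 or within 1 kb, each list held 3 H3K4me2 peaks of any fold. Peaks of 4.5-fold or more over such spans numbered 1 under shStau2 at SIGLEC14, FASLG, IL32 and CD34. Under shControl they numbered 2, 2, 1 and 1. SIGLEC10 had 0 under shStau2 and 1 under shControl.

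Starts of genes known from other tissues were also among the 30. MSTN, the muscle growth inhibitor myostatin, had 0 bases under shStau2 and 289 under shControl. The value under shStau2 was likewise 0 at the others, while under shControl it was 526 bases at KCNK3, a potassium leak channel, and 295 at CACNA1D, a calcium channel subunit. Under shControl it was 284 at the olfactory receptor gene OR4D2, 645 at CROCC, which encodes the ciliary rootlet protein, and 813 at TMEM190. The members at these 6 starts were weak, from 4.53-fold at TMEM190 to 5.84-fold at OR4D2. Those at the blood cell genes named above were also weak. They ran from 4.67-fold at CD34 to 5.59-fold at SIGLEC10, with SIGLEC14 higher at 6.18-fold. Apart from APC2, the strongest of the 30 were at RUFY4 (6.71-fold) and SIGLEC14 (6.18-fold). RUFY4, an autophagy regulator of dendritic cells, had 0 bases under shStau2 and 304 under shControl, and its nearest shStau2 peak was 51799 bases away. The listed start of RUFY4 lies inside the annotated gene (chr2:218034934-218090652), which also begins upstream. The same holds for the listed start of CROCC (gene at chr1:16914085-16972964).

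At the 28 starts with H3K4me3 in both lists the member lay within 500 bases of a shStau2 H3K4me2 peak, except at TMEM151A (1371 bases) and TNFRSF9 (583 bases). DNM1L had 1921 bases of H3K4me2 within 2 kb under shStau2 and 2251 under shControl, and TCF3 had 2747 under shStau2 and 2833 under shControl. BRPF1, a scaffold of a histone acetyltransferase complex, had 2509 under shStau2 and 2600 under shControl. TPT1, the translationally controlled tumour protein, had 2620 under shStau2 and 3048 under shControl. These starts thus stayed broadly marked under shStau2. H3K4me3 covered more bases under shStau2 than under shControl at these 4 starts. The values were 1939 against 1318 at DNM1L, 2862 against 2522 at TCF3, 2525 against 2056 at BRPF1 and 3340 against 2466 at TPT1. DGKZ, another of the 28, went the other way, with 238 bases against 323. The shStau2 H3K4me3 list was larger as a whole, and H3K4me3 bases over all starts were not compared. MTCL2 had the widest member at a start with H3K4me3 in both lists, of 786 bases. It had 1615 bases of H3K4me2 under shStau2 and 2402 under shControl.

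**Figure D5:**
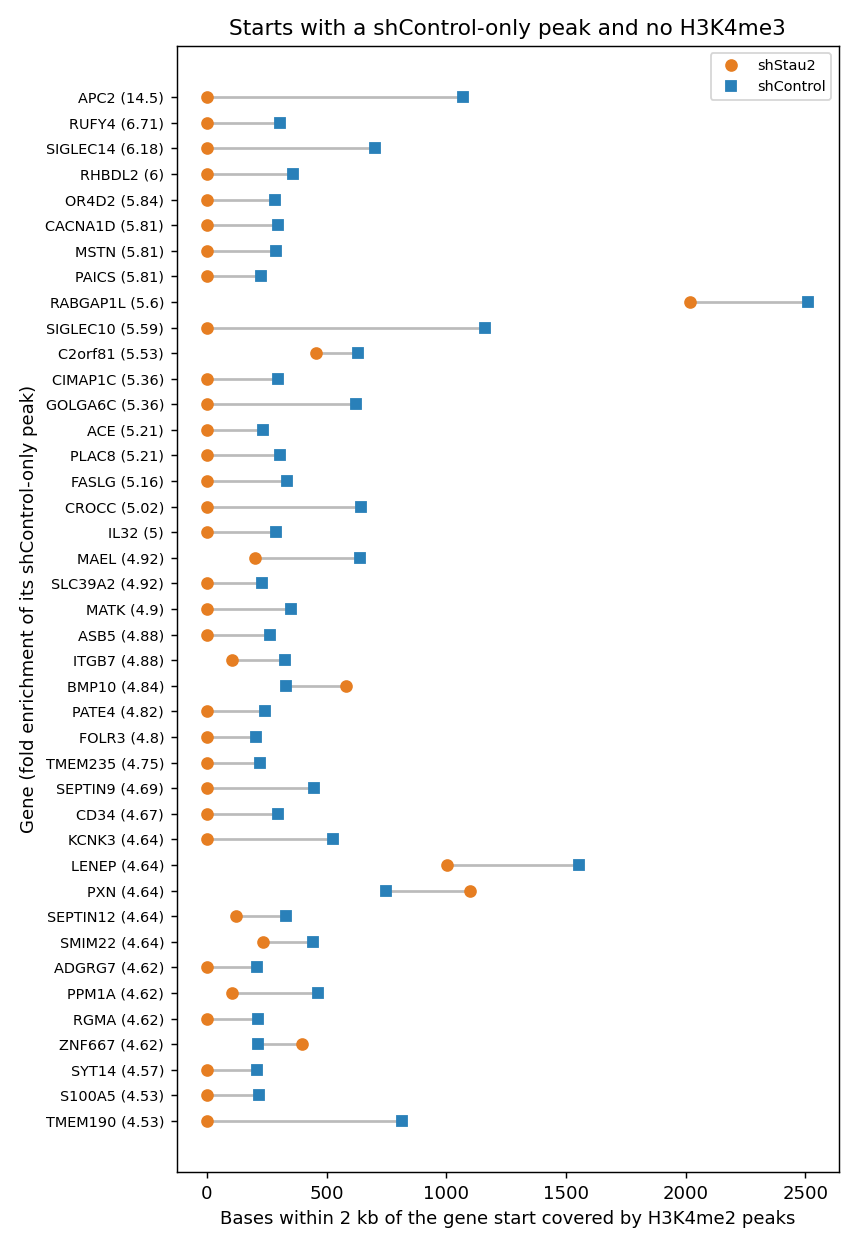
Bases within 2 kb of the listed start that H3K4me2 peaks cover (x axis) in the shStau2 and the shControl list, for the starts with a shControl-only peak within 1 kb and no H3K4me3 in either list (41 rows, ordered by the fold enrichment of the member, given in brackets). At 30 of these starts the shStau2 value is 0, and APC2 stands at 0 against 1068 bases.

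The starts differed in sequence from those under all shared peaks, a set that was mostly stronger and wider than members. Starts under shared peaks of like size were not compared, so whether the difference goes with peak size was not tested. A member overlapped the 250 bases before 31 listed starts, by as few as 3 bases at MATK, 5 at HS2ST1 and 9 at SYT14. The 31 stretches had a median of 60% G and C and 7 CpG dinucleotides. These values were 66.4% and 22 in the 7245 stretches that only a shared peak overlapped, and 62.4% and 18 in all 11893. GGGCGG, the letters of the Sp1 box, occurred on either strand in 38.7% of the 31 (21.9 to 57.8%). It occurred in 71.2% under shared peaks and in 56.6% of all, and the interval held the share of all but not that under shared peaks. GATAA, the core of GATA factor sites, occurred in 19.4% (7.45 to 37.5%), against 11.8% and 16.6%, so its interval held both other shares. The stretches of SLC4A1AP and SUPT7L overlap under 1 peak, where GATAA is the same site, and those of SEPTIN12 and SMIM22 overlap under another. The 31 stretches therefore count some bases more than once, and the intervals do not allow for this. CCAAT occurred in 22.6%, TATAAA in 3.23%, TGAGTCA (the AP-1 letters) in 3.23% and CACGTG (the E-box of Myc) in 9.68%, against 34.3%, 9.08%, 3.14% and 7.98% of all stretches. No 2 of these letter strings contain one another, and a match is a description of letters, not a bound site. The FASLG stretch printed above held GATAA and GGGCGG, that of APC2 CCAAT and GGGCGG, and that of SIGLEC14 CACGTG.

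Counted over whole genes, a member was found at 970 of 14728 protein-coding genes, that is, inside them or within 1 kb, or 6.59%. Long genes had more room: the median length was 80.5 kb in these 970 and 23.8 kb in all genes. At 125 genes there were 2 or more members and at 25 there were 3 or more. SSH2, a phosphatase that activates cofilin, had the most, with 5 members, and in all 10 shStau2 and 14 shControl peaks of 4.5-fold or more. MED13L, a Mediator subunit, had 4 members, with 22 shStau2 and 31 shControl peaks. Among the other genes with 4 members, MICAL2, which oxidises actin, had 18 shStau2 and 15 shControl peaks. CELF2, an RNA-binding splicing regulator, had 14 in each list, and SOX6, a repressor of embryonic globin genes, 36 shStau2 and 28 shControl peaks. GAB2 (28 shStau2 and 29 shControl peaks) and PIP4K2A (23 shStau2 and 25 shControl peaks) had slightly fewer under shStau2. Among genes with 3 members, MYO1A, a brush border myosin, had 1 shStau2 and 4 shControl peaks. SMAD7, the inhibitor of TGF-beta signalling, had 4 shStau2 and 6 shControl peaks, and RARA, the retinoic acid receptor alpha, 7 shStau2 and 10 shControl peaks.

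At 45 of the 970 genes (4.64%) no shStau2 H3K4me2 peak of any fold lay inside or within 1 kb. In the reverse direction, 198 of the 2326 genes with a shStau2-only peak had no shControl peak. KRT17, a keratin of stressed epithelium, had a member of 7.03-fold. The others included SLAMF7, a receptor of natural killer and plasma cells (4.92-fold), SLC2A2, the glucose transporter of liver and beta cells (5.32-fold), TFF1, a mucosal peptide (5.30-fold) and SIGLEC12 (4.58-fold). One of the 45, CSRNP3, had H3K4me3, at 5.55-fold under shStau2 and 6.04-fold under shControl.

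Of 541 listed genes of 22 blood, signalling, chromatin and tissue lists in the compared region, 40 had a member (7.39%), against the 6.59% of all genes. Among stem cell and leukaemia self-renewal genes it was 5 of 22, among them MECOM (6.11-fold) and MEIS1 (5.51), transcription factors of stem cells, CD34 (4.67) and TCF7L2 (4.62). Of the BCR-ABL1 signalling genes 5 of 26 had one. BCL2L1, the survival factor BCL-XL, had 3, the strongest of 6.65-fold and 913 bases, 119 bases from a shStau2 peak of 4.72-fold. STAT5B, the transcription factor downstream of BCR-ABL1, had one of 5.67-fold, GAB2, an adaptor of BCR-ABL1, 4 of up to 5.23-fold and CRK one of 4.62-fold. The median length of the genes in these 2 lists was 95.3 kb and 84.1 kb, above that of all genes, so their counts are not set against the 6.59% as a result.

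Adhesion and cytoskeleton genes counted 5 of 34, led by CDH1 and ARHGAP15 (5.23 and 5.20-fold), megakaryocyte and platelet genes 3 of 22 (among them MEIS1, and RUNX1 at 4.64-fold), and LSD1 and CoREST genes 3 of 20. GSE1, a CoREST partner, had 2 of up to 5.05-fold, and PHF21A, the subunit that reads unmethylated H3K4, one of 4.68-fold. The erythroid list held 1 of 37, SLC4A1, the red cell anion exchanger (4.92-fold, 480 bases). Granulocyte and monocyte genes counted 0 of 31, B cell genes 0 of 13 and HOX genes 0 of 28, beside 6.59% of all genes. The median gene length in these lists was 13.5 kb, 25.7 kb and 3.89 kb, against 80.4 kb in the adhesion list and 23.8 kb in all genes. The lists are small and differ in gene length, so neither these counts nor those of the other lists are read as a result. T cell genes counted 2 of 24: TBX21, the T-bet factor (6.18-fold), and CD3D (4.64).

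The remaining counts were 3 of 31 neuronal genes (GAD1, DLG2 and TUBB3), 2 of 34 RNA-binding genes (CELF2 and CELF1), 2 of 18 fibroblast genes (COL6A1 and ZEB2) and 2 of 16 endothelial genes (PECAM1 and FLT1). A single gene had one in the lists of interferon response (RSAD2), NF-kB (RELB), cell cycle (CDC25A), p53 and apoptosis (CASP8), H3K4 methylation enzymes (SMYD3), polycomb and DNA methylation (UHRF1), hepatocyte (AFP) and ribosomal protein genes (RPL28). ZEB2 had 3 members, and its peaks of any fold numbered 11 in the shStau2 list and 21 in the shControl list. The pattern differed at GAB2, with 4 members but 56 shStau2 peaks of any fold against 53 shControl peaks.

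Members were spread over the genome. Their share of the shControl peaks of 4.5-fold or more ran from 3.37% on chromosome 22 to 6.05% on chromosome 18, with 6.02% on chromosome 15. Joined across gaps of up to 100 kb they formed 1637 runs, of which 1265 were single peaks and 92 held 3 or more. The 3 with most members held 7 each. One (chr17:2359381-2572361) spanned SGSM2, MNT, METTL16 and PAFAH1B1 and held 7 of the 15 peaks in it, at 4.62 to 5.80-fold. The run at chr12:52914565-53207309 crossed the keratin genes KRT8 and KRT18 and ended at ITGB7, a lymphocyte integrin, with 7 of 28 peaks. The third, at chr15:74965647-75259265, ran past RPP25 and PPCDC to GOLGA6C, with 7 of 24. No member held a RefSeq miRNA hairpin, and 1 hairpin, MIR759, lay within 1 kb of one (233 bases).

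As a check of the cell label, all 9 K562 and erythroid or megakaryocytic marker genes examined carried H3K4me3 in both lists. Of the markers of T cells, B cells, and monocytes and granulocytes, 0 of 4 did in each case. Those of fibroblasts counted 1 of 3 (COL1A1), of hepatocytes 1 of 2 (APOA1) and of neurons 2 of 3, in either list.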

How the data were processed

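ChIP-seq peak lists of H3K4me2 and H3K4me3 from K562 cells under each hairpin were used, with 1 library per group taken from the sample titles. Bowtie2, hg38 and MACS2 are named in the submitters' processing notes. Per the file headers, MACS 2.1.2 called peaks in every library separately, using its own hairpin's input, at a q-value of 0.05, a fragment length of 200 bases and with duplicates removed. The deposited lists give peak width, signal as pileup at the summit, fold enrichment as the ratio to local background, and −log10 of the p-value and q-value. Depth after filtering was 26221869 to 30744332 tags per ChIP library, per the file headers, so weak peaks are the least precise calls.

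Both H3K4me2 lists end at 65507 peaks, so only the region complete in both was compared. Overlap meant 1 base or more. Genes and starts came from RefSeq GRCh38.p14. Shares carry exact Clopper-Pearson 95% intervals (scipy 1.17.1, pandas 2.3.3, numpy 2.4.6, Python 3.11.15, matplotlib 3.10.9), which cover counting error only. The overlap code was checked on copies of the shControl H3K4me2 list with some peaks left out at random or all peaks shifted. Its overlaps matched bedtools 2.31.1. No test between hairpins was made. The members and gene lists were chosen with earlier results of these data known.

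Named members were the 15 of highest fold enrichment, the 5 widest, the 12 strongest near a gene end, the 6 strongest with H3K4me3, the 3 runs with most members, up to 3 genes per list and 3 peaks on each side of the threshold. Some genes taken by this rule are left out here. Further genes were picked once their values were known. Thresholds, overlaps and windows were varied as alternatives.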

Additional observations from a re-analysis of the deposited data

How the results depend on the processing

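The number of shControl-only peaks followed its thresholds: 3906 at a fold enrichment of 4 or more, 220 at 6 or more, 49 at a −log10 q of 10 or more and 1030 at 300 bases or wider. It was 3349 when a shared peak had to be covered by 50% or more in place of 1 base, and 5384 when only shStau2 peaks of 4.5-fold or more counted. The share within 1 kb of a protein-coding gene end (5.82%) was 4.14% at 0.5 kb, 12.4% at 2.5 kb, 22.4% at 5 kb and 3.12% for starts with strand.

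Overlap with H3K4me3 stayed under 7% in every setting run. For the shStau2 list (1.68%) it was 2.73% at 6-fold or more, 3.07% with shStau2 peaks of 4.5-fold or more only, 1.17% at 300 bases or wider, 0.888% for members over 500 bases from a shStau2 peak and 6.29% for an H3K4me3 peak within 1 kb. For the shControl list (1.07%) it was 2.73% at 6-fold or more, 4.08% at a −log10 q of 10 or more, 0.317% over 500 bases away and 3.68% within 1 kb. Members with a shStau2 H3K4me2 peak within 1 kb (33.4%) were 36.2% at 4-fold or more, 57.3% under 50% coverage and 73.4% with shStau2 peaks of 4.5-fold or more only, and 26.6%, 47.5% and 62.5% at 0.5, 2.5 and 5 kb. Listed genes with a member were 40, and 62 within 10 kb.

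The settings with starts on a strand and with members over 500 bases away were chosen after seeing the data. The other 19 values moved by less than their interval or by less than 1.5 times for a count. No paired analysis was possible because each group had 1 library. The part of depth in the number of members was not tested.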
